A study of Mus musculus with 75 samples.

Results

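The effect of losing Rxra was measured in cells that had already lost Rara, by setting RARX-DKO cells, which carry the combined knockout of Rara and Rxra, against Rara-KO cells. The comparison rested on 4 of the 75 samples of the series, 2 libraries of each genotype, chosen by their labels and read from a table of raw RNA-seq counts. Both genotypes were mouse E14 embryonic stem cells, both lacked Rara, and both had been taken out of LIF and 2i (the medium that holds these cells in self-renewal) and given 2 µM retinoic acid (RA) for 24 h. The same table held Rxra-KO and WT cells under the same treatment (n = 2 each), and a second table held cells overexpressing Rxra (Rxra-OE) and their vector control V-OE (n = 2 each, same RA treatment). All 8 knockout-table libraries were fitted together, and 16445 of 52535 entries passed the filter on low counts. No sample without RA entered, so each value below is a level under RA and not a response to it. Nothing in the labels says that replicates came from separate cultures or clones, so p-values measure only the spread between these libraries, which may be technical. The deleted part of each gene and whether a genotype is 1 clone are not given in the sources used here.

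RA acts through heterodimers of a retinoic acid receptor (RARα, RARβ, RARγ, encoded by Rara, Rarb and Rarg) and a retinoid X receptor (RXRα, RXRβ, RXRγ), which sit on DNA response elements and exchange corepressors for coactivators when ligand binds. Among the best known direct targets in embryonic stem cells are Cyp26a1, whose enzyme hydroxylates RA and so limits its own inducer, and the 3′ genes of the Hoxa and Hoxb clusters. RXRs also pair with LXR, PPAR and other nuclear receptors, so that loss of an RXR need not touch RA targets alone.

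The promoters of both genes that passed the test, and of Cyp26c1, the neighbour of Cyp26a1 on chromosome 19, are given here as sequences searched for the motifs named below. They are RefSeq windows on GRCm38.p6, from 250 bases before to 50 bases after the annotated start, on the gene's strand and 5′ to 3′. Capitals mark a direct repeat of the hexamer AGTTCA with 5 bases between (DR5), read on the opposite strand. The windows are chr19:37697558-37697857 for Cyp26a1, chr19:37685430-37685729 for Cyp26c1 and chr11:63128732-63129031 for the most upstream of 4 Pmp22 starts, all on the plus strand.
Cyp26a1: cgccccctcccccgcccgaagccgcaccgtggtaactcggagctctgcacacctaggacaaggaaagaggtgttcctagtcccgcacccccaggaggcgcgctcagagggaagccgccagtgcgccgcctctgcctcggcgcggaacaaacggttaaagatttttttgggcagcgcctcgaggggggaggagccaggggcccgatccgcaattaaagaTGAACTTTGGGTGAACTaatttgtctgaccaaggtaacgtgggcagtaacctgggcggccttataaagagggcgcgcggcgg
Cyp26c1: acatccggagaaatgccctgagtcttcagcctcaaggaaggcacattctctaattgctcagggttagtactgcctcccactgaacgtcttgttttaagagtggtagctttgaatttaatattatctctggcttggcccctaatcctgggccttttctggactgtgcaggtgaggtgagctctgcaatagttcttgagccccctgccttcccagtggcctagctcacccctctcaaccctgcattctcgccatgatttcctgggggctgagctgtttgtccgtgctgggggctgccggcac
Pmp22: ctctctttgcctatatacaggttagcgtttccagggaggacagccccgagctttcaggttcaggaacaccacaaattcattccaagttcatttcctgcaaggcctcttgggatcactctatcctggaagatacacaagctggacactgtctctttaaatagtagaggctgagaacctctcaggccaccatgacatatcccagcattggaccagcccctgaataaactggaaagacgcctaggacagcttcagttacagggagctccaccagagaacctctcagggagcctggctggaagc
Motifs searched on both strands were AGGTCA and AGTTCA in every order as direct repeats, with 1, 2 or 5 bases between, 12 motifs in all and with no overlap between them. The match in the Cyp26a1 window, to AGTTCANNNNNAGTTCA, lay 32 to 16 bases before the RefSeq start (chr19:37697776-37697792). That motif was present in 8 of 32851 RefSeq windows (0.0244%), any DR5 of these hexamers in 13 (0.0396%) and any of the 12 motifs in 53 (0.161%). Of 58 genes looked up for this text, 38 had an entry, with 64 windows among them, and the Cyp26a1 window was the only 1 of these 64 with a match. A match is a description of letters and not of binding. Other hexamers were not searched, so a window without a match can still hold a direct repeat. The Rarb window, counted here as without a match, holds GGTTCA and AGTTCA with 5 bases between. Windows without the searched letters thus say nothing about receptor binding there or elsewhere.

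The knockout-table libraries held 7408691 to 13052102 counts, with 8565951 and 7408691 in RARX-DKO and 9262929 and 8731523 in Rara-KO. Replicates of a genotype were not closest to each other throughout. RARX-DKO replicate 1 differed from Rara-KO replicate 2 by 5.03 times the counting variance, against 14.2 times between the RARX-DKO replicates and 8.0 times between the Rara-KO replicates. In RARX-DKO replicate 2 the genes of chromosome 8 lay higher by a median of 0.34 log2 units than the mean of the 8 libraries and those of chromosome 6 by 0.20, while in RARX-DKO replicate 1 the medians were -0.07 and -0.04. Of 277 genes higher in RARX-DKO at an unadjusted p under 0.05, chromosome 8 held 59 and chromosome 6 held 35. Of the 286 lower ones they held 7 and 16, and of all 16445 genes tested 859 and 811. The 7 tested genes of chromosome Y summed to 10.0 and 6.93 CPM (counts scaled to a common library size) in RARX-DKO and 11.3 and 8.84 CPM in Rara-KO, against 189.7 and 179 CPM in Rxra-KO and 179 and 146 CPM in WT. RARX-DKO and Rara-KO were thus alike on chromosome Y and apart from the other genotypes, and the part of this in any comparison with Rxra-KO and WT was not tested. Markers of embryonic stem cells summed to 4525 and 4242 CPM in RARX-DKO and 4488 and 3776 CPM in Rara-KO, with all 6 detected. Of 10 fibroblast markers, 5 (Col3a1, Postn, Dcn, Lum, Prrx1) had 0 counts in all 4 libraries, and the 10 summed to 19.3 and 18.5 CPM in RARX-DKO and 13.5 and 18.3 CPM in Rara-KO. Thy1, which is not limited to fibroblasts, made up part of that sum, with 8.18 and 9.79 CPM in RARX-DKO and 5.24 and 4.04 CPM in Rara-KO.

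**Figure D1:**
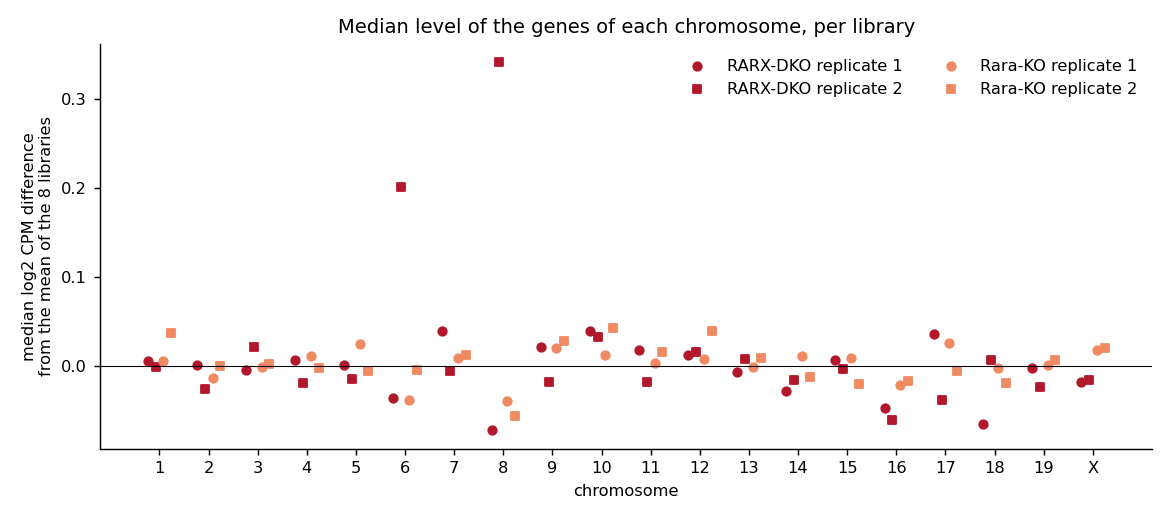
Median difference in log2 CPM from the mean of the 8 knockout-table libraries (vertical axis) for the genes of each chromosome (horizontal axis), in RARX-DKO and Rara-KO libraries. RARX-DKO replicate 2 stood apart on chromosomes 8 and 6, at 0.34 and 0.20, while the other 3 libraries lay near 0.

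The RA-degrading enzyme gene Cyp26a1 and the myelin protein gene Pmp22 were each about 8-fold lower in RARX-DKO than in Rara-KO. These 2 genes of 16445 tested passed edgeR's quasi-likelihood test at an adjusted p under 0.05 (0.0122%), both lower in RARX-DKO and none higher. Without adjustment 563 genes (3.42%) had p under 0.05, with 277 higher (1.68%) and 286 lower (1.74%) in RARX-DKO, and DESeq2 called 19 genes, 3 higher and 16 lower. Both RARX-DKO libraries lay below both Rara-KO libraries for 2339 genes (14.2%) and above them for 2221 (13.5%). In bulk RNA, fewer expressing cells and less RNA per cell cannot be told apart, here and in all values below.

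Cyp26a1 (ENSMUSG00000024987, chromosome 19, 37697798 to 37701536, mm10, plus strand) stood at 25.7 and 27.3 CPM in RARX-DKO, against 141 and 279.5 CPM in Rara-KO. The RARX-DKO libraries nearly coincided and lay far below both Rara-KO libraries, which themselves differed about 2-fold. The log2 fold change was -2.99 ± 0.30 (SE), a 7.93-fold lower level, with edgeR's adjusted p = 0.0222. Means were 26.5 ± 1.17 CPM in RARX-DKO and 210.1 ± 98.2 CPM in Rara-KO (SD, n = 2 each). In the cells with Rara, Cyp26a1 had 64.6 and 89.6 CPM in Rxra-KO, against 526 and 550.3 CPM in WT (log2 fold change -2.80 ± 0.29, adjusted p = 0.00209). The 2 effects differed by -0.18 ± 0.40 on the log2 scale (adjusted p = 0.98). edgeR's adjusted p was 0.111 without RARX-DKO replicate 1 and 0.403 without replicate 2, 0.109 and 0.0791 without Rxra-KO replicate 1 or 2, and 0.0813 and 0.0718 without WT replicate 1 or 2. It was 0.201 with only the 2 genotypes in the fit, and below 0.05 without either Rara-KO library.

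Pmp22 (ENSMUSG00000018217, chromosome 11, 63128982 to 63159547, plus strand), which encodes a tetraspan membrane protein of compact myelin, had 2.50 and 1.90 CPM in RARX-DKO, against 14.4 and 21.0 CPM in Rara-KO. The groups did not overlap, although the RARX-DKO values rest on 22 and 14 reads, against 135 and 192 in Rara-KO. The log2 fold change was -2.99 ± 0.33 (adjusted p = 0.00655, 7.94-fold lower). In Rxra-KO cells it had 5.47 and 8.51 CPM, against 26.2 and 26.6 CPM in WT (-1.91 ± 0.28, adjusted p = 0.00448). The 2 effects differed by -1.08 ± 0.43 on the log2 scale, which did not pass (adjusted p = 0.68). Pmp22 kept its call without either RARX-DKO library, at log2 fold changes of -3.21 without replicate 1 and -2.81 without replicate 2. It lost the call with only the 2 genotypes in the fit (adjusted p = 0.201) and without WT replicate 1 (0.0813) or WT replicate 2 (0.0718).

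**Figure D2:**
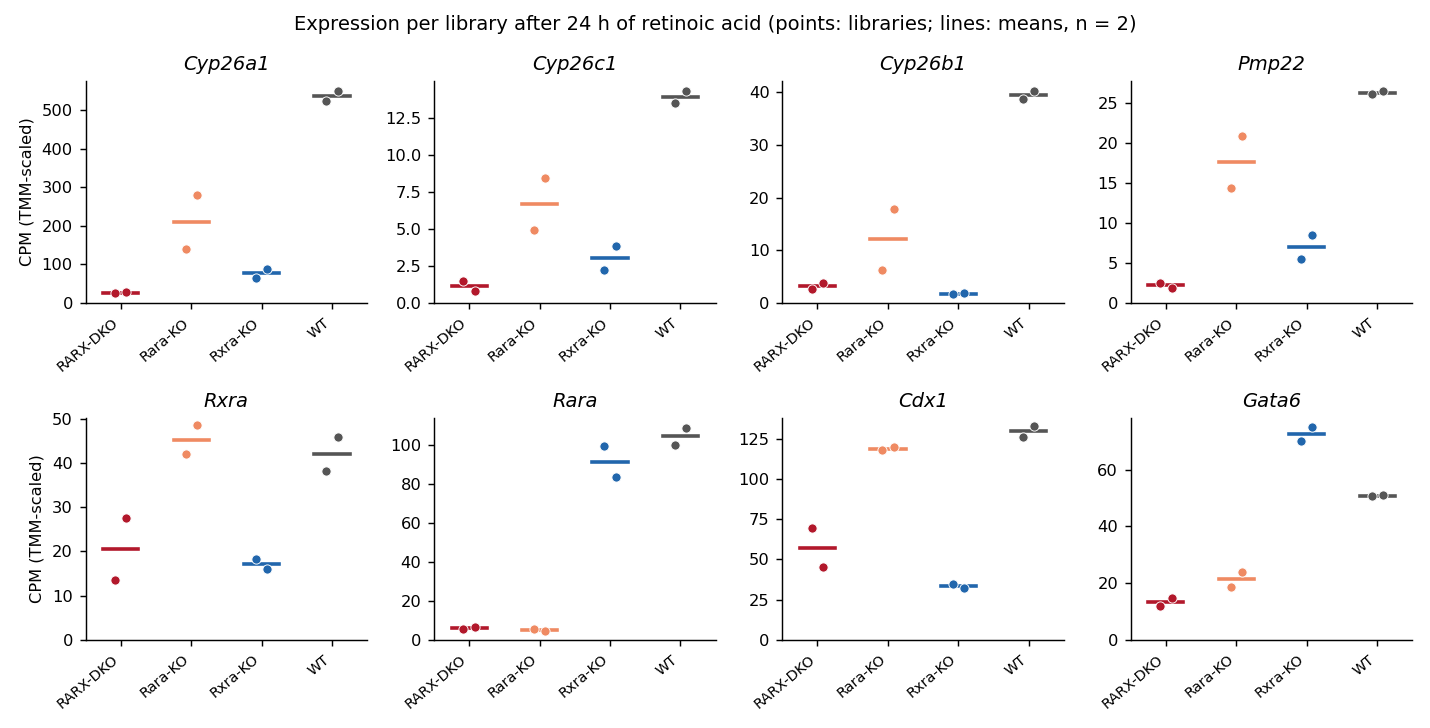
CPM in each library (points) and the mean of 2 libraries (lines) for 8 genes in RARX-DKO, Rara-KO, Rxra-KO and WT cells, with vertical axes from 0. Cyp26a1 and Pmp22 lie lowest in RARX-DKO, whereas Cyp26b1 and Cdx1 have their lowest means in Rxra-KO and Gata6 is highest there.

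The other RA hydroxylases lay lower in RARX-DKO without passing. Cyp26c1, whose gene sits just upstream of Cyp26a1 (chromosome 19, 37685581 to 37693398), had 1.48 and 0.816 CPM in RARX-DKO, against 4.92 and 8.40 CPM in Rara-KO (log2 fold change -2.50 ± 0.45, adjusted p = 0.183). Cyp26b1, on chromosome 6, had 2.61 and 3.81 CPM in RARX-DKO, against 6.21 and 17.9 CPM in Rara-KO (-1.92 ± 0.44, adjusted p = 0.68). For both genes the groups did not overlap, and the Rara-KO libraries were the more spread. Cyp26b1 was already low in Rxra-KO, at 1.69 and 1.91 CPM, against 38.6 and 40.2 CPM in WT (-4.44 ± 0.47, adjusted p = 0.00102). Its fall in that pair exceeded its difference here by 2.53 ± 0.65 log2 units, which did not pass (adjusted p = 0.39). DESeq2 called Cyp26c1 and Cyp26b1 (adjusted p = 0.00377 and 0.0119).

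Of 24 genes of RA signalling and metabolism, 22 were tested, 1 was called lower (Cyp26a1) and 0 were called higher. Both RARX-DKO libraries lay below both Rara-KO libraries for 9 of the 22 and above for 1, against 14.2% and 13.5% of all genes. The 9 include Rxra, whose knockout sets the genotypes apart, and the 1 is Rara, knocked out and low in both. The list's median log2 fold change was -0.16 against 0.01 for all genes tested, with -0.20 without RARX-DKO replicate 1 and -0.30 without replicate 2. Dhrs3, a retinal reductase chosen after its values were seen, had 22.4 and 14.5 CPM in RARX-DKO and 24.8 and 33.4 CPM in Rara-KO (-0.65 ± 0.23, adjusted p = 1). Stra6, a retinol-binding protein receptor also chosen after its values were seen, had 21.0 and 24.7 CPM in RARX-DKO and 27.2 and 30.7 CPM in Rara-KO (-0.34 ± 0.24, adjusted p = 1). Neither passed. For both the groups did not overlap, but both genes were chosen with those values known.

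Among the receptors themselves, Rxra (chromosome 2, 27676440 to 27762957) had 13.6 and 27.6 CPM in RARX-DKO, against 42.2 and 48.6 CPM in Rara-KO. The groups did not overlap, yet the gene kept reads in both RARX-DKO libraries, and its log2 fold change of -1.15 ± 0.27 did not pass (adjusted p = 0.68, or 0.0374 by DESeq2). Without RARX-DKO replicate 2 it was -1.73 (adjusted p = 0.0159), and without replicate 1 it was -0.72 (adjusted p = 0.216). In Rxra-KO it had 18.4 and 16.1 CPM, against 38.2 and 46.0 CPM in WT (-1.29 ± 0.27, adjusted p = 0.0264). RARX-DKO replicate 2, at 27.6 CPM, was the highest of the 4 libraries labelled as lacking Rxra, and a count over the whole gene cannot check a deletion whose position is not given. Rara was low in both groups, at 5.57 and 6.53 CPM in RARX-DKO and 5.35 and 4.37 CPM in Rara-KO (0.31 ± 0.22, adjusted p = 1), against 99.3 and 83.2 CPM in Rxra-KO and 100.1 and 109 CPM in WT. Rarg, Rxrb and Rarb overlapped between the groups. Rarg had 348 and 408 CPM in RARX-DKO and 382 and 310.2 CPM in Rara-KO (0.13 ± 0.15, adjusted p = 1). Rxrb had 63.8 and 62.5 CPM in RARX-DKO and 67.4 and 60.7 CPM in Rara-KO (-0.02 ± 0.18, adjusted p = 1). Rarb, itself an RA target, had 14.1 and 11.4 CPM in RARX-DKO and 11.4 and 18.8 CPM in Rara-KO (-0.24 ± 0.29, adjusted p = 1).

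**Figure D3:**
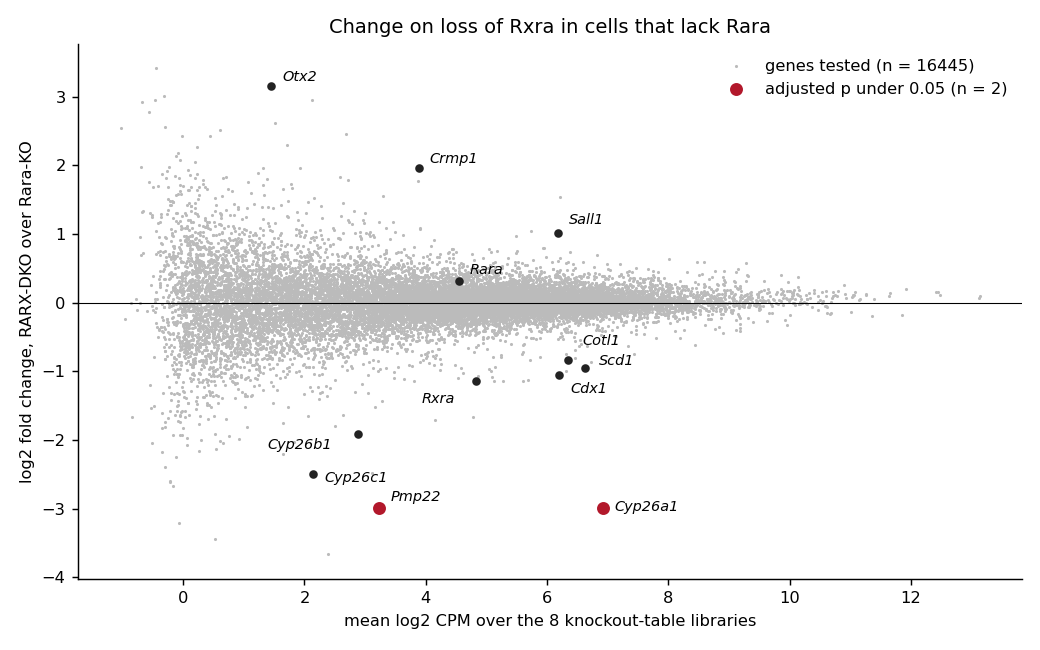
Log2 fold change of RARX-DKO over Rara-KO (vertical axis) against mean log2 CPM over the 8 knockout-table libraries (horizontal axis) for 16445 genes (grey), with the 2 genes of adjusted p under 0.05 in red and other named genes in black. Pmp22 and Cyp26a1 lie at -2.99, and Cyp26a1 stands far from other genes of its abundance.

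The 10 genes of lowest p were all lower in RARX-DKO. Besides both genes that passed and Cyp26c1 they were Scd1, Cotl1, Cdx1, Fbp2, Fignl2, Hotairm1 and Grasp. Scd1, which introduces the first unsaturation into fatty acids and is an LXR target, had 71.8 and 60.6 CPM in RARX-DKO, against 139.8 and 117 CPM in Rara-KO (-0.96 ± 0.16, adjusted p = 0.159). Cotl1, an actin-binding protein gene on chromosome 8, had 47.8 and 53.4 CPM in RARX-DKO, against 87.8 and 92.0 CPM in Rara-KO (-0.83 ± 0.14, adjusted p = 0.159). Its level was low in both RARX-DKO libraries although the chromosome as a whole lay high in replicate 2, and with a scaling factor per chromosome it passed (-1.02, adjusted p = 0.0285). Cdx1, a homeobox regulator of Hox genes and a direct RA target, had 69.5 and 45.1 CPM in RARX-DKO, against 118 and 120.1 CPM in Rara-KO (-1.05 ± 0.18, adjusted p = 0.159). Fbp2, the muscle-type fructose-bisphosphatase of gluconeogenesis, had 60.7 and 45.1 CPM in RARX-DKO, against 104 and 107 CPM in Rara-KO (-0.99 ± 0.17, adjusted p = 0.16). In each of these 4 genes the groups did not overlap, but their choice by low p made that likely. Of the 286 genes lower in RARX-DKO at an unadjusted p under 0.05, 280 (97.9%) had both RARX-DKO libraries below both Rara-KO libraries. Dropping RARX-DKO replicate 1 leaves 1 library, assumed to vary like the others. The log2 fold change was then -1.08 for Scd1, -1.40 for Cdx1 and -1.22 for Fbp2. Over all alternatives it ranged from -1.21 to -0.70 for Scd1, from -1.40 to -0.77 for Cdx1 and from -1.22 to -0.79 for Fbp2. Fignl2 (-1.15 ± 0.21, adjusted p = 0.183), Hotairm1 (-0.95 ± 0.19, adjusted p = 0.358) and Grasp (-0.75 ± 0.15, adjusted p = 0.376) completed the set. All 10 lay lower in Rxra-KO than in WT too, and 9 of them passed there, where 1.20% of all genes were called lower.

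No member of the Hoxa cluster passed, although its summed level was lower in both RARX-DKO libraries. Summed over its 12 tested members, expression was 131 and 156 CPM in RARX-DKO, against 197 and 281 CPM in Rara-KO. The median log2 fold change was -0.65, and 10 of 12 members had a negative fold change (49% of all genes). For 5 members both RARX-DKO libraries lay below both Rara-KO libraries, and for 0 above (14.2% and 13.5% of all genes). The median was -0.67 without RARX-DKO replicate 1 and -0.75 without replicate 2. Hotairm1, a noncoding RNA of the cluster, had 14.4 and 18.2 CPM in RARX-DKO, against 30.4 and 32.5 CPM in Rara-KO. The counting is not stated to use strand, so reads of Hotairm1 cannot be told apart from those of an overlapping gene on the other strand. Hoxa5, chosen after its values were seen, had 16.6 and 29.9 CPM in RARX-DKO, against 31.2 and 57.0 CPM in Rara-KO (-0.93 ± 0.31, adjusted p = 1). Hoxa lies on chromosome 6, whose median was high in RARX-DKO replicate 2, and Hoxb on chromosome 11, whose median was not. The rise on chromosome 6 did not show around Hoxa, however. The genes in the 20-Mb window around Hoxa5 had medians of -0.05 log2 units in RARX-DKO replicate 1 and 0.03 in replicate 2. In RARX-DKO replicate 2 the windows around Cyp26b1 and Nanog, also on chromosome 6, lay at 0.27 and 0.26. The window around Mest, on chromosome 6 too, lay at -0.007 there.

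The Hoxb cluster split the RARX-DKO libraries. Its 12 tested members summed to 15.2 CPM in RARX-DKO replicate 1 and 87.0 CPM in replicate 2, against 87.1 and 95.8 CPM in Rara-KO. In that sum replicate 1 alone was low, and replicate 2 lay at the lower Rara-KO library. Member by member, both RARX-DKO libraries lay below both Rara-KO libraries for 7 of the 12 and above for 0 (14.2% and 13.5% of all genes). Hoxb1, the 3′ gene of the cluster and a hindbrain patterning gene, had 0 counts in replicate 1, which allows up to 0.341 CPM, and 2.58 CPM in replicate 2, against 3.21 and 2.95 CPM in Rara-KO (adjusted p = 1). No fold change is given for it, since it would rest on a library at 0. Hoxb4, chosen after its values were seen, had 2.39 and 12.5 CPM in RARX-DKO, against 13.9 and 13.6 CPM in Rara-KO (-0.92 ± 0.57, adjusted p = 1). Hoxb6 had 0.114 and 2.86 CPM in RARX-DKO, against 6.42 and 5.13 CPM in Rara-KO (-2.02 ± 0.72, adjusted p = 1). Hoxb8 had 0.341 and 6.12 CPM in RARX-DKO, against 7.28 and 8.84 CPM in Rara-KO (-1.37 ± 0.79, adjusted p = 1). In RARX-DKO replicate 1 Hoxb6 rested on 1 read and Hoxb8 on 3, within the limit for 0 counts, so the sizes of both fold changes are uncertain. All 12 members had a negative fold change (49% of all genes). Their median was -1.06, but -0.27 without replicate 1 and -2.77 without replicate 2. The fit without replicate 2, in which the lone RARX-DKO library is assumed to vary like the others, called 8 genes lower, and 5 of them were Hoxb1, Hoxb3os, Hoxb4, Hoxb6 and Hoxb8. Chromosome 11 as a whole had medians of 0.02 and -0.02 in the RARX-DKO libraries, so the whole chromosome did not shift with the cluster.

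**Figure D4:**
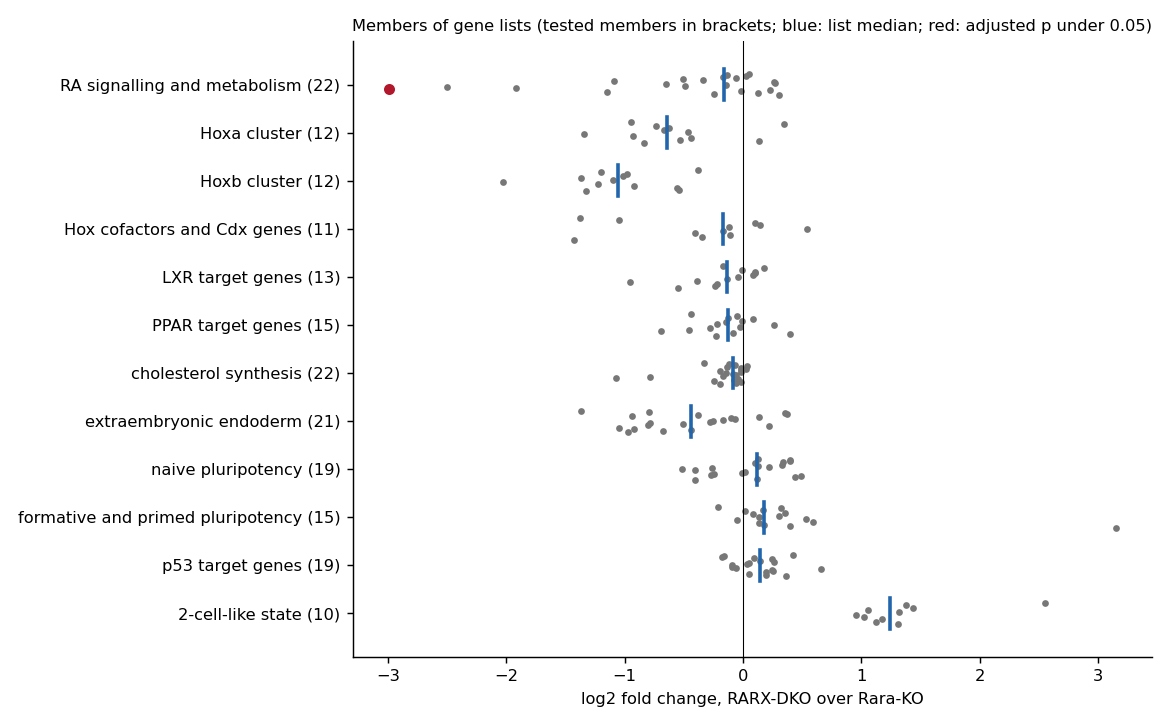
Log2 fold change of RARX-DKO over Rara-KO (horizontal axis) for the tested members (grey points) of 12 gene lists (rows), with the list median as a blue bar and the gene of adjusted p under 0.05 in red. Hoxb and Hoxa members have the lowest medians, -1.06 and -0.65, and Cyp26a1 is the red point of the RA list.

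The Hox cofactors and Cdx genes gave 0 calls among 11 tested members, with 5 members whose RARX-DKO libraries both lay below both Rara-KO libraries (14.2% of all genes) and 1, Pknox1, above (13.5%). The median was -0.17, with -0.32 without RARX-DKO replicate 1 and -0.13 without replicate 2. Meis1, a TALE homeobox partner of Hox proteins, had 3.07 and 3.81 CPM in RARX-DKO, against 10.3 and 8.19 CPM in Rara-KO (-1.43 ± 0.31, adjusted p = 0.51). It stood at 13.1 and 19.9 CPM in Rxra-KO, against 15.5 and 16.3 CPM in WT, where its log2 fold change was 0.06 ± 0.27 (adjusted p = 0.95). The contrast between both pairs was -1.49 ± 0.41 and did not pass (adjusted p = 0.41).

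Targets of other RXR partners were examined through gene lists. Of 13 tested LXR targets, 0 passed, 3 (Srebf1, Scd1, Scd2) had both RARX-DKO libraries below both Rara-KO libraries, 0 had both above, and the median was -0.13. Of 15 tested PPAR targets, 0 passed and 5 lay below and 1 above in the same sense. Their median was -0.13, but -0.39 without RARX-DKO replicate 1 and -0.04 without replicate 2. Of 22 cholesterol synthesis genes, 20 had a negative fold change (49% of all genes), 5 lay below and 0 above, with 0 calls. Their median was -0.08, but -0.19 without replicate 1 and -0.05 without replicate 2. Beside these counts stand 14.2% of all genes below and 13.5% above, so the 3 of 13 LXR targets are near the share over all genes. Of 12 tested genes for RXR partner receptors and COUP-TFs, 0 passed. Nr2f6, a COUP-TF family member on chromosome 8, had 47.9 and 58.5 CPM in RARX-DKO, against 31.1 and 39.3 CPM in Rara-KO (0.59 ± 0.18, adjusted p = 1). The genes in the 20-Mb window around Nr2f6 had a median of -0.05 log2 units in RARX-DKO replicate 1, against 0.36 in replicate 2.

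No pluripotency gene passed. Of 19 tested naive pluripotency genes, 0 passed, 4 had both RARX-DKO libraries above both Rara-KO libraries and 3 below, near the 13.5% and 14.2% of all genes. The median was 0.12, but 0.05 without RARX-DKO replicate 1 and 0.09 without replicate 2. Zfp42 (Rex1), a marker of naive cells on chromosome 8, had 786 and 848 CPM in RARX-DKO, against 634 and 531 CPM in Rara-KO (0.49 ± 0.14, adjusted p = 0.917). The genes in the 20-Mb window around it had a median of -0.09 log2 units in RARX-DKO replicate 1, against 0.46 in its other library, and with a factor per chromosome its log2 fold change was 0.30. Sox2 and Manba, chosen after their values were seen, had 472 and 376 CPM and 297 and 290.01 CPM in RARX-DKO, against 315 and 309.6 CPM and 219 and 226 CPM in Rara-KO. Nanog, chosen the same way, had lower values in RARX-DKO, with 835 and 558 CPM in RARX-DKO, against 999 and 841 CPM in Rara-KO (-0.40 ± 0.18, adjusted p = 1). Tfcp2l1, a naive-state transcription factor, had 243 and 149.97 CPM in RARX-DKO, against 296 and 265 CPM in Rara-KO (-0.52 ± 0.19, adjusted p = 1). Without RARX-DKO replicate 1 it was -0.91 (adjusted p = 0.0389), and without replicate 2 it was -0.21 (adjusted p = 1).

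Of 15 tested formative and primed genes, 0 passed and 13 had a positive fold change (51% of all genes). For 3 (Otx2, Pou3f1, Zic2) both RARX-DKO libraries lay above both Rara-KO libraries (13.5% of all genes), and for 0 below (14.2%). The median was 0.17, but 0.45 without RARX-DKO replicate 1 and 0.13 without replicate 2. Otx2, which drives the exit from the naive state, had 1.70 and 9.25 CPM in RARX-DKO, against 0.856 and 0.327 CPM in Rara-KO. The Rara-KO values rest on 8 and 3 reads, near the limit for 0 counts, so the size of the difference is uncertain (3.15 ± 0.82, adjusted p = 0.917). Most of that difference came from replicate 2, and the log2 fold change was 1.51 without it, against 3.93 without replicate 1 (adjusted p = 0.0157). Dnmt3l, the cofactor of the de novo methyltransferases, had 353 and 587 CPM in RARX-DKO, against 354 and 268 CPM in Rara-KO (0.60 ± 0.23, adjusted p = 1), with replicate 1 at the level of a Rara-KO library.

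Of 21 tested genes of extraembryonic endoderm, 0 passed, 17 had a negative fold change and 4 a positive one (49% and 51% of all genes). Both RARX-DKO libraries lay below both Rara-KO libraries for 10 (14.2% of all genes) and above for 1, Sparc (13.5%), and the median was -0.44. The summed level of the 21 genes overlapped between the groups, at 945 and 997 CPM in RARX-DKO and 983 and 1064 CPM in Rara-KO. Gata6, which specifies primitive endoderm and was chosen after its values were seen, had 12 and 14.7 CPM in RARX-DKO, against 18.6 and 24.0 CPM in Rara-KO (-0.68 ± 0.19, adjusted p = 0.917). Gata4, its partner in that lineage and chosen likewise, had 2.04 and 2.18 CPM in RARX-DKO, against 5.03 and 3.27 CPM in Rara-KO (-0.98 ± 0.35, adjusted p = 1). Pdgfra, chosen likewise, had 6.82 and 4.89 CPM in RARX-DKO, against 6.85 and 9.93 CPM in Rara-KO (-0.51 ± 0.28, adjusted p = 1). In Rxra-KO against WT the same list had a positive median of 0.51. There Gata6 had 70.1 and 75.2 CPM in Rxra-KO, against 50.7 and 51.1 CPM in WT (0.51 ± 0.17, adjusted p = 0.135), so its sign differed between both pairs. The difference of effects was -1.19 ± 0.25 for Gata6 (unadjusted p = 0.000359, adjusted p = 0.24) and -1.57 ± 0.44 for Gata4 (adjusted p = 0.41), and neither passed. The endoderm marker list summed to 127 and 149.6 CPM in RARX-DKO and 147 and 187 CPM in Rara-KO, which overlap, and the share of endoderm-like cells in these cultures was not measured.

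The same loss of Rxra could be set beside its effect where Rara is present, since RARX-DKO and Rara-KO share no library with Rxra-KO and WT, although all 8 share a fit. Rxra-KO against WT called 407 of 16445 genes (2.47%), with 210 higher (1.28%) and 197 lower (1.20%). Of the 197 lower there, 105 (53.3%) had both RARX-DKO libraries below both Rara-KO libraries and 8 (4.06%) both above, against 14.2% and 13.5% of all genes, and their median log2 fold change in RARX-DKO was -0.28, against -1.24 in Rxra-KO. Of the 210 higher there, 73 (34.8%) had both RARX-DKO libraries above and 12 (5.71%) both below, with medians of 0.18 in RARX-DKO and 1.00 in Rxra-KO. These genes were chosen by Rxra-KO against WT, so the sizes of the medians are not compared. Across all 16445 genes, which are not independent replicates, Pearson's r between both effects was 0.28 and Spearman's rho 0.26. With chromosomes 2, 6, 8, 10, 16 and Y left out, r was 0.26. The SD of the log2 fold changes was 0.38 for RARX-DKO against Rara-KO and 0.59 for Rxra-KO against WT.

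The test of the difference itself, (RARX-DKO minus Rara-KO) minus (Rxra-KO minus WT), called 0 of 16445 genes in edgeR, with 1083 (6.59%; 3.57% higher and 3.02% lower) at an unadjusted p under 0.05 and 45 called by DESeq2. At this replication edgeR thus showed for no gene that the Rxra effect depended on Rara. Mt2, a metallothionein gene on chromosome 8, had 485 and 768 CPM in RARX-DKO and 504 and 451 CPM in Rara-KO (0.39 ± 0.19, adjusted p = 1), against 1273 and 1478 CPM in Rxra-KO and 387 and 449 CPM in WT (1.72 ± 0.19, adjusted p = 0.00105), a difference of -1.33 ± 0.27 (adjusted p = 0.24). Grb10, an imprinted growth inhibitor chosen after its values were seen, had 56.2 and 36.7 CPM in RARX-DKO and 53.3 and 64.4 CPM in Rara-KO, against 47.1 and 73.3 CPM in Rxra-KO and 293 and 288 CPM in WT, a difference of 1.93 ± 0.32 (adjusted p = 0.24). WT alone was high for Grb10, and the 3 knockout genotypes lay together.

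**Figure D5:**
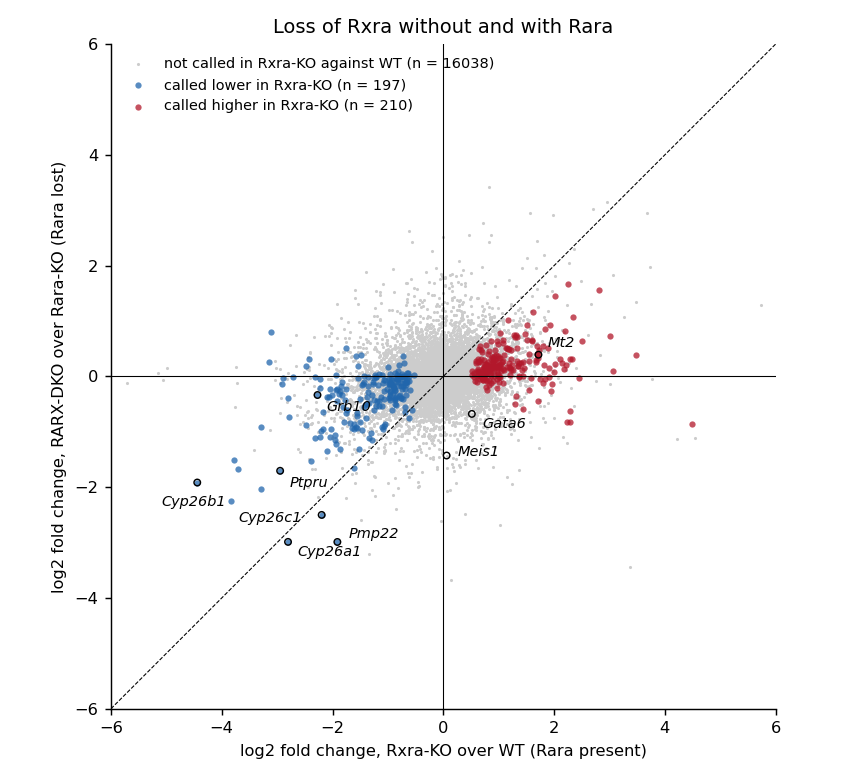
Log2 fold change on loss of Rxra in cells without Rara (RARX-DKO over Rara-KO, vertical axis) against that in cells with Rara (Rxra-KO over WT, horizontal axis), with genes called lower (blue, 197) or higher (red, 210) in Rxra-KO against WT and the line of equal effects (dashed). Of the genes called in Rxra-KO, 166 of 197 lower and 168 of 210 higher ones keep their side of 0 on the vertical axis. Over all genes, 49% lie below 0 on that axis and 51% above. Cyp26a1 and Cyp26c1 lie near the dashed line, and 4 genes fall outside the axes.

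Overexpression of Rxra offered the opposite manipulation of that gene in libraries that share nothing with those above. Unlike RARX-DKO and Rara-KO, these cells expressed Rara, at 55.2 and 51.0 CPM in Rxra-OE and 51.6 and 52.4 CPM in V-OE. Rxra-OE against V-OE called 10178 of 16914 genes (60.2%), with 5230 higher (30.9%) and 4948 lower (29.3%), so a call there is common. All 10 genes of lowest p in RARX-DKO against Rara-KO were called higher in Rxra-OE, with a median log2 fold change of 1.56. Cyp26a1 had 1088 and 1096 CPM in Rxra-OE, against 184 and 186 CPM in V-OE (log2 fold change 2.56). Pmp22 had 250.1 and 245 CPM in Rxra-OE, against 30.2 and 24.6 CPM in V-OE (3.19). Of the 286 genes lower in RARX-DKO at an unadjusted p under 0.05, 179 (62.6%) were called higher in Rxra-OE and 40 (14%) lower. Of the 247 tested there of the 277 genes higher in RARX-DKO, 150 (60.7%) were called lower and 29 (11.7%) higher. Zfp42, among the genes with higher values in RARX-DKO, had 80.6 and 77.2 CPM in Rxra-OE, against 886 and 855 CPM in V-OE. Among the exceptions was Ezr, which links membrane to actin, was chosen after its values were seen and lay lower in both, at 292 and 289 CPM in RARX-DKO against 471 and 416 CPM in Rara-KO, and at 641 and 662.5 CPM in Rxra-OE against 790 and 801 CPM in V-OE.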

How the data were processed

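Values are raw counts per gene as deposited by the authors. The submitters' processing notes name mm10, HISAT2 2.1.0, HTSeq 0.9.1 and DESeq2 1.18.1 with no role or order, and strand use is not given in the sources used here. Columns were matched to samples by title. Of 52535 entries, 26 names had been turned into dates and 2 were repeated. All 8 knockout libraries entered 1 edgeR 4.0.16 fit (R 4.3.3; TMM, filterByExpr with 10 as minimum count, robust quasi-likelihood) with p-values adjusted by Benjamini-Hochberg over all genes tested and a threshold of 0.05. The overexpression table, with its 6 libraries, was fitted separately. Each SE was taken as the size of the log2 fold change divided by the root of F. CPM use TMM-scaled library sizes, and the limit for 0 counts is 3 counts in a library, for counting error only. Scripts were tested on simulated counts. Alternatives included DESeq2 1.42.0, other scalings, other filters and left-out libraries. Gene positions are from GENCODE vM21. Named genes were Rara, Rxra, Rarb, Rarg, Rxrb, the Cyp26 genes, Hoxb1, genes that passed, the 10 of lowest p, and up to 2 members a list by size of change. The comparison, its members and the lists were chosen with earlier results of these data known. Replicate numbers were not used as pairs in the main fit (correlation of replicate differences between RARX-DKO and Rara-KO -0.21). That value cannot tell whether libraries shared a culture or batch. ChIP-seq, 4C-seq and enhancer deletion data were not used here. Some named genes are not reported here.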

Additional observations from a re-analysis of the deposited data

How the results depend on the processing

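With 2 libraries a group, single libraries decide several values. For RARX-DKO against Rara-KO the 2 calls became 1 with library totals as the only scaling, 58 with no filter on low counts, 19 by DESeq2 and 0 with only the 2 groups in the fit. Leaving out libraries gave 0 (without WT replicate 1, or 2) to 47 calls (without RARX-DKO replicate 1, 33 of them higher and 17 of those 33 on chromosome 6 or 8), with 8 without RARX-DKO replicate 2; leaving out a library of each group together gave 38 and 13. With the replicate number as a block there were 2 calls, or 1 with only the 2 groups in the fit, and the crossed pairing, added after seeing the data, gave 35. Pmp22 kept its call in 18 of 22 alternatives and Cyp26a1 in 13 of 22, both with the same sign in all 22. For the difference by Rara status the 0 calls became 1 with library totals, 3 with factors per chromosome, 115 with no filter, 45 by DESeq2 and 0 to 17 without a library. For Rxra-KO against WT the 407 became 1084 with no filter, 654 by DESeq2, 225 at 2-fold or more, 220 with the 6 chromosomes left out, and 21 to 660 without a library. For Rxra-OE against V-OE the 10178 became 3505 at 2-fold or more and 8765 to 10472 without a library. Of 1248 alternative values of 58 named genes, 1138 kept direction and side of the threshold, 86 passed newly, 13 no longer passed and 11 turned sign. These sign changes came from left-out libraries, over which the log2 fold changes ranged from -0.110 to 0.0769 for Rxrb, -0.554 to 0.157 for Rarb, -0.0153 to 0.286 for Rarg, -2.94 to 0.623 for Hoxb2, -0.744 to 2.46 for Zscan4a and -0.801 to 2.39 for Mest. Rarb and Rarg turned without Rara-KO replicate 2, Hoxb2 without RARX-DKO replicate 1, Zscan4a and Mest without RARX-DKO replicate 2, and Rxrb without that library or Rara-KO replicate 1. The cause was not tested.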

Other observations

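Genes of the 2-cell-like state, a rare fluctuating state of embryonic stem cells marked by the Zscan4 family, separated the RARX-DKO libraries. The 10 tested members summed to 18.1 CPM in RARX-DKO replicate 1 and 95.6 CPM in replicate 2, against 20.5 and 28.1 CPM in Rara-KO. All 10 had a positive fold change (51% of all genes) with a median of 1.24, which was -0.47 without replicate 2, and 0 passed. Zscan4a, chosen after its values were seen, had 3.64 and 21.3 CPM in RARX-DKO, against 3.85 and 6.11 CPM in Rara-KO, and passed without RARX-DKO replicate 1 (2.097, adjusted p = 0.0231). The Zscan4 copies are near-identical, and how reads were split between them is not given, so single members are uncertain.

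Among imprinted genes, Mest, the paternally expressed hydrolase gene on chromosome 6, had 20.7 and 190.2 CPM in RARX-DKO, against 46.5 and 25.8 CPM in Rara-KO (log2 fold change 1.54 ± 1.07, adjusted p = 1, or 2.39 and adjusted p = 0.021 without RARX-DKO replicate 1). Cdkn1c, a maternally expressed inhibitor of the cell cycle, was lower in both RARX-DKO libraries, at 32 and 23.7 CPM, against 62.5 and 60.1 CPM in Rara-KO (-1.13 ± 0.52, adjusted p = 1). Of 22 tested imprinted genes 0 passed, with a median of 0.04.

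The 3 genes that DESeq2 called higher in RARX-DKO were Crmp1, Sall1 and Otx2, the first 2 chosen after their values were seen. Crmp1, a cytosolic protein of growing axons, had 17.3 and 47.3 CPM in RARX-DKO, against 7.49 and 9.06 CPM in Rara-KO (edgeR's adjusted p = 0.801). Sall1, a zinc-finger transcription factor gene on chromosome 8, had 71.2 and 125 CPM in RARX-DKO, against 47.1 and 50.2 CPM in Rara-KO (edgeR's adjusted p = 0.664), and the genes of its 20-Mb window lay 0.40 log2 units high in RARX-DKO replicate 2. Without RARX-DKO replicate 1 the log2 fold change was 2.51 for Crmp1 and 1.36 for Sall1. Over all alternatives it ranged from 0.93 to 2.65 for Crmp1 and from 0.51 to 1.41 for Sall1. Of the p53 targets, 7 of 19 tested had both RARX-DKO libraries above both Rara-KO libraries and 1 below (13.5% and 14.2% of all genes), with a median of 0.14 and 0 calls. Pmaip1, which encodes the death-promoting protein Noxa, had 37.3 and 23.8 CPM in RARX-DKO, against 19.6 and 19.2 CPM in Rara-KO (0.66 ± 0.27, adjusted p = 1).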
